A study of Mus musculus with 13 samples.

Results

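Cx3cr1 and 7 other receptors that guide myeloid cells along chemical gradients (Ccr1, Cxcr4, Ccrl2, Cmklr1, Fpr1, Fpr2 and Gpr183) were examined in RNA-Seq data of sorted brain myeloid cells. They were chosen by gene symbol, with earlier results of these data known, as 8 of the 52636 genes listed for each mouse. All 8 were found. The cells came from PS2APP mice, which carry human transgenes for mutant presenilin 2 and mutant amyloid precursor protein and accumulate β-amyloid plaques. Both groups carried these transgenes and were 14 to 15 months old. The 7 PS2APP;Trem2wt mice (5 females, 2 males) had an intact Trem2 gene, and the 6 PS2APP;Trem2ko mice (5 females, 1 male) lacked it in every cell of the body through a germline null allele. That allele was made on C57BL/6N and bred into PS2APP on C57BL/6J, so DNA close to Trem2 may differ between the genotypes too. Cortex and hippocampus were pooled within a mouse, and CD11b+ CD45+ cells without Ly6g or Ccr2 on their surface were collected by FACS, a gate that admits microglia and a small share of perivascular macrophages.

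Chemoattractant receptors are mostly G protein-coupled receptors at the cell surface. A bound ligand releases the Gi class of G protein, whose subunits drive actin rearrangement through PI 3-kinase and Rac so that the cell moves up the ligand gradient. In brain, Cx3cr1 on microglia binds fractalkine (Cx3cl1), which neurons display, and it is a classical mark of resting microglia. Trem2 is a lipid and lipoprotein receptor of microglia that is needed for much of their response to plaques.

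Each mouse gave 1 library, with 26120961 to 120569609 counts on genes. The deposited nRPKM values, read counts scaled by gene length and library depth with a size factor, are per length and allow levels of different genes to be compared. Trem2 itself was between 818 and 1244 nRPKM in PS2APP;Trem2wt mice and between 0.393 and 2.29 nRPKM in PS2APP;Trem2ko mice, as labelled. Microglial markers were abundant in every library: the 11 listed genes summed to 13460 to 16580 nRPKM in PS2APP;Trem2wt and 14340 to 15880 nRPKM in PS2APP;Trem2ko mice. None of the 11 was called, where 2.04% of all tested genes were called in either direction. Among 36 pairs of mice of 1 genotype, counts differed by at least 18.1 times sampling noise, so no library looked deposited again under another label. A gene was called when its Benjamini-Hochberg adjusted p in edgeR's quasi-likelihood test over 17086 tested genes was 0.05 or less.

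The upstream DNA of the 2 receptors with the smallest p-values, Cx3cr1 and Cmklr1, is shown because these are the receptors on which the comparison turns. The sequences are the 250 bases before the transcript start in RefSeq (GRCm38.p6), 5′ to 3′ on the gene's strand, which is the minus strand for both. Each window belongs to 1 start only and lies inside the gene interval given below. GENCODE lists 3 transcripts of Cx3cr1 and 4 of Cmklr1, and starts further upstream were not searched. Capitals mark matches to 1 of 3 motifs searched on both strands, GAGGAA (the core of the microglial factor PU.1), TGACTCA (AP-1) and CACGTG (an E-box).
Cx3cr1, chr9:120068297-120068546: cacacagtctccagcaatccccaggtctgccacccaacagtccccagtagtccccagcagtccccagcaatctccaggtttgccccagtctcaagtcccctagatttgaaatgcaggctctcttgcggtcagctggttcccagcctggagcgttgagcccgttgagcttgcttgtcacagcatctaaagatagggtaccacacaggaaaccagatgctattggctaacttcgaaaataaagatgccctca
Cmklr1, chr5:113643604-113643853: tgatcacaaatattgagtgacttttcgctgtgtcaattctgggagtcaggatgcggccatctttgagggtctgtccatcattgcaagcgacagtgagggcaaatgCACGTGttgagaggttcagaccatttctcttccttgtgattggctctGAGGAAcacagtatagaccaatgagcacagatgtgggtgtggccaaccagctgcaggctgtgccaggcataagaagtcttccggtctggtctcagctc
The Cx3cr1 window held none of the 3 motifs. Cmklr1 had GAGGAA at position -98 and CACGTG at position -145 from its start. GAGGAA occurred in 23.3%, TGACTCA in 4.46% and CACGTG in 6.02% of 32851 promoter windows of the same length. Of the other 6 receptors, Ccr1 held GAGGAA on its own strand and Fpr2 on the opposite strand, and no motif was found for Cxcr4, Ccrl2, Fpr1 or Gpr183. These matches describe the letters only.

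In edgeR, Cx3cr1 was the 1 receptor of the group called lower in PS2APP;Trem2ko microglia, and Cmklr1 was called lower too with voom+limma and with DESeq2. Cx3cr1 was far above the other members in level, at 1526 ± 144 nRPKM (SD, n = 7) in PS2APP;Trem2wt and 1088 ± 127 nRPKM (SD, n = 6) in PS2APP;Trem2ko mice. By the edgeR fold change it was 28.8% lower in PS2APP;Trem2ko mice. Of the 8 receptors, 7 passed the low-count filter and 1 of the 7 was called lower, where 1.53% of all tested genes were. None of the 7 was called higher, where 0.503% of all tested genes were, and 2.04% were called in either direction. At an unadjusted p of 0.05 or less, 4 of the 7 were lower and 0 higher, beside 7.56% and 7.29% of tested genes. The median log2 fold change of the 7 was -0.16, and that of all tested genes was 0.0039. The 8 were chosen with earlier results of these data known, so these shares and medians describe the list and test no trend. In bulk RNA, fewer cells of a type and less RNA per cell cannot be told apart.

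Cx3cr1 (ENSMUSG00000052336, chromosome 9 of GRCm38, 119901616 to 120069879, minus strand) is the fractalkine receptor. In PS2APP;Trem2wt mice the lowest value was 1266, the median 1553 and the highest 1677 nRPKM. In PS2APP;Trem2ko mice the corresponding values were 894, 1086 and 1280 nRPKM. Every PS2APP;Trem2ko mouse but 1 lay below every PS2APP;Trem2wt mouse, and the overlap came from males, since the PS2APP;Trem2ko male (1280 nRPKM) exceeded 1 PS2APP;Trem2wt male (1266 nRPKM). The females did not overlap, with 1408 to 1677 nRPKM against 894 to 1140 nRPKM, where 2.39% of tested genes were lower and 1.78% higher without overlap among females. Cx3cr1 had a log2 fold change of -0.49 (edgeR, SE 0.09, adjusted p = 0.0067). On log2(nRPKM + 0.1), the exact two-sided permutation test (1716 possible splits) gave p = 0.00175, and among females alone p = 0.00794, the smallest that 5 against 5 allow. Counts behind these values ran from 219780 to 1201581 per mouse, so counting error is small beside the spread between mice. Of the gene's 50-base words 1.06% also occur in another gene, and 78 of its 4505 exonic bases overlap Gm33858 on the other strand. The interval also holds other genes, among them Gorasp1, Ttc21a, Csrnp1 and Xirp1, whose exons do not overlap those of Cx3cr1.

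**Figure D1:**
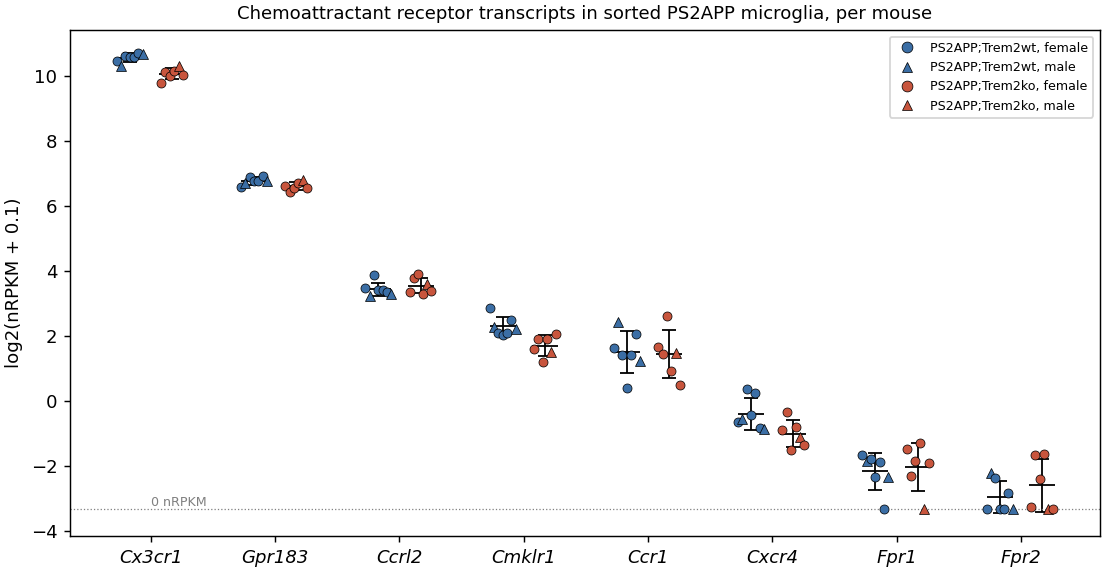
Level of each receptor in each mouse as log2(nRPKM + 0.1), with receptors ordered by level. Circles are females and triangles males, blue is PS2APP;Trem2wt (n = 7) and red PS2APP;Trem2ko (n = 6), and bars are the mean ± SD on the log2 scale. Cx3cr1 sits far above the other receptors and is lower in red, while Fpr1 and Fpr2 lie near the line for 0 nRPKM.

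The decrease was also seen relative to other microglial transcripts. The log2 ratio of Cx3cr1 nRPKM to the geometric mean of the 11 microglial markers was 1.31 to 1.53 in PS2APP;Trem2wt mice and 0.663 to 1.14 in PS2APP;Trem2ko mice, with no overlap. The difference of -0.48 had p = 0.000583 in a two-sided exact permutation test (7 against 6 mice), the smallest that these numbers allow. This ratio was chosen after the data were seen, and it is not a separate test because it uses the same Cx3cr1 values. Csf1r, P2ry12 and Tmem119, microglial surface proteins of the same list, had log2 fold changes of -0.18, 0.00026 and 0.04 and none was called (adjusted p = 0.437, 0.999 and 0.877 from edgeR). Border macrophages, some of which the sort admits, were followed by 8 markers that summed to 50.5 to 72.0 nRPKM in PS2APP;Trem2wt and 57.1 to 84.0 nRPKM in PS2APP;Trem2ko mice. None of the 8 was called, where 2.04% of all tested genes were, and none was at 0 in 7 or more mice. Of the 8, 6 had a positive and 2 a negative log2 fold change (median 0.23). The part of these macrophages in the Cx3cr1 values was not tested. In edgeR 0 genes were called among 5 tested of 9 lymphocyte markers, 6 dendritic cell markers and 12 neuronal, glial and endothelial markers. Of all tested genes 2.04% were called, so lists this short can hold 0 calls without being unchanged. Of the 6 dendritic cell markers, 5 had a positive log2 fold change (median of the 6, 0.44). The negative one was Zbtb46 (-0.61, edgeR unadjusted p = 0.0119). Of the 12, 7 were positive and 5 negative. Of the 5 tested lymphocyte markers, 4 had a positive log2 fold change, among them the natural killer cell gene Nkg7 (0.85, not called). The other, Klrb1c, also a natural killer cell gene and named after its value was seen, had -2.65 (edgeR, adjusted p = 0.0774). Its adjusted p ran from 0.0049 to 0.142 among the alternatives, and 0 to 157 counts per mouse lay behind it.

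Cmklr1 (ENSMUSG00000042190, chromosome 5, 113612354 to 113650426) binds the chemoattractant chemerin. Its lowest, median and highest values were 4.01, 4.58 and 7.25 nRPKM in PS2APP;Trem2wt mice. In PS2APP;Trem2ko mice they were 2.21, 3.29 and 4.12 nRPKM. The genotypes overlapped by 1 mouse on each side: 5 of 6 PS2APP;Trem2ko mice were below all PS2APP;Trem2wt mice, and 6 of 7 PS2APP;Trem2wt mice were above all PS2APP;Trem2ko mice. Its log2 fold change in edgeR was -0.61 (SE 0.16), unadjusted p = 0.00178 and adjusted p = 0.0684, so it did not pass the threshold over all genes. It did pass with voom+limma (adjusted p = 0.0417) and with DESeq2 (adjusted p = 0.00906). As a single value it gave p = 0.00117 in the two-sided exact permutation test.

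Gpr183 (EBI2, ENSMUSG00000051212, chromosome 14, 121952551 to 121965195) follows oxysterols such as 7α,25-dihydroxycholesterol. It was the receptor of the group with the next highest level after Cx3cr1, with a lowest, median and highest value of 95.7, 108.8 and 120.9 nRPKM in PS2APP;Trem2wt mice. The values were 87.3, 96.6 and 112.2 nRPKM in PS2APP;Trem2ko mice, whose male was the highest. The genotypes overlapped. In edgeR its log2 fold change was -0.16 (SE 0.07) with adjusted p = 0.314, and as a single gene it had p = 0.042 in the two-sided exact permutation test. Gpr183 lies inside Ubac2, which is on the opposite strand, and whether the counting used strand is not given in the sources used here.

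Cxcr4 (ENSMUSG00000045382, chromosome 1, 128588199 to 128592293), the receptor for Cxcl12, was near the low end. Its lowest, median and highest values were 0.455, 0.575 and 1.19 nRPKM in PS2APP;Trem2wt and 0.250, 0.397 and 0.688 nRPKM in PS2APP;Trem2ko mice. The 2 PS2APP;Trem2wt females at 1.19 and 1.08 nRPKM stood above every other mouse. In edgeR a log2 fold change of -0.75 (SE 0.31) came with unadjusted p = 0.0254 and adjusted p = 0.249, and the exact permutation p was 0.039. Between 27 and 221 counts per mouse lay behind these values.

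Ccrl2 (ENSMUSG00000043953, chromosome 9, 111054486 to 111057519), which binds chemerin without known signalling of its own, was 9.23 to 14.5 nRPKM in PS2APP;Trem2wt (median 10.6) and 9.80 to 14.8 nRPKM in PS2APP;Trem2ko mice (median 11.2). The ranges overlapped nearly fully, and the log2 fold change was 0.12 (edgeR, SE 0.12, adjusted p = 0.693).

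Ccr1 (ENSMUSG00000025804, chromosome 9, 123962124 to 123968692) binds inflammatory chemokines such as Ccl3 and Ccl5. It ranged from 1.23 to 5.29 nRPKM (median 2.57) in PS2APP;Trem2wt and from 1.30 to 6.11 nRPKM (median 2.68) in PS2APP;Trem2ko mice. The log2 fold change was -0.03 (edgeR, SE 0.33, adjusted p = 0.980), and its sign turned in several alternatives. Within each genotype the mouse with the highest Ccr1 also had the highest summed levels of the 8 monocyte and of the 6 dendritic cell markers. These were a PS2APP;Trem2wt male, with 5.29 nRPKM of Ccr1 25.4 nRPKM of monocyte and 11.2 nRPKM of dendritic cell markers, and a PS2APP;Trem2ko female, with 6.11, 21.4 and 22.3 nRPKM. The male was also the highest of all mice in neutrophil markers, at 233 nRPKM. Over all mice the 8 monocyte markers summed to 4.73 to 25.4 nRPKM in PS2APP;Trem2wt and 5.14 to 21.4 nRPKM in PS2APP;Trem2ko mice. Of the 8, 0 were called, where 2.04% of all tested genes were, and none was at 0 in 7 or more mice. Their log2 fold changes were negative for 5 and positive for 3. The 6 dendritic cell markers summed to 2.99 to 11.2 nRPKM and 6.64 to 22.3 nRPKM, and none was at 0 in 7 or more mice. The part of these cells in the Ccr1 values was not tested.

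The formyl peptide receptors Fpr1 and Fpr2, which detect bacterial and mitochondrial peptides, lie side by side on chromosome 17 (17876471 to 17883940 and 17887824 to 17893952), about 30.5 Mb from Trem2. Fpr1 had 0 to 26 counts per PS2APP;Trem2wt mouse and 0 to 61 counts per PS2APP;Trem2ko mouse, with medians of 0.175 and 0.171 nRPKM. Its log2 fold change was 0.28 (edgeR, SE 0.73, adjusted p = 0.907), which this depth cannot tell from 0. Fpr2 had at most 11 counts in PS2APP;Trem2wt and at most 22 counts in PS2APP;Trem2ko mice, did not pass the filter, and was not tested. Of its 50-base words 31.5% occur in another gene, most of them in Gm5966, so its few reads are uncertain. The limit of 3 counts was 0.0249 to 0.115 CPM (counts scaled to library depth), depending on the mouse, and covers counting error only. The 9 neutrophil markers summed to 13.4 to 233 nRPKM in PS2APP;Trem2wt and 0.252 to 42.7 nRPKM in PS2APP;Trem2ko mice. Of the 5 of these that were tested, 0 were called, where 2.04% of all tested genes were, and 3 of the 9 were at 0 in 7 or more mice. All 5 had a negative log2 fold change (median -1.4). Neutrophils express both Fpr genes, and their part in the Fpr values was not tested.

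**Figure D2:**
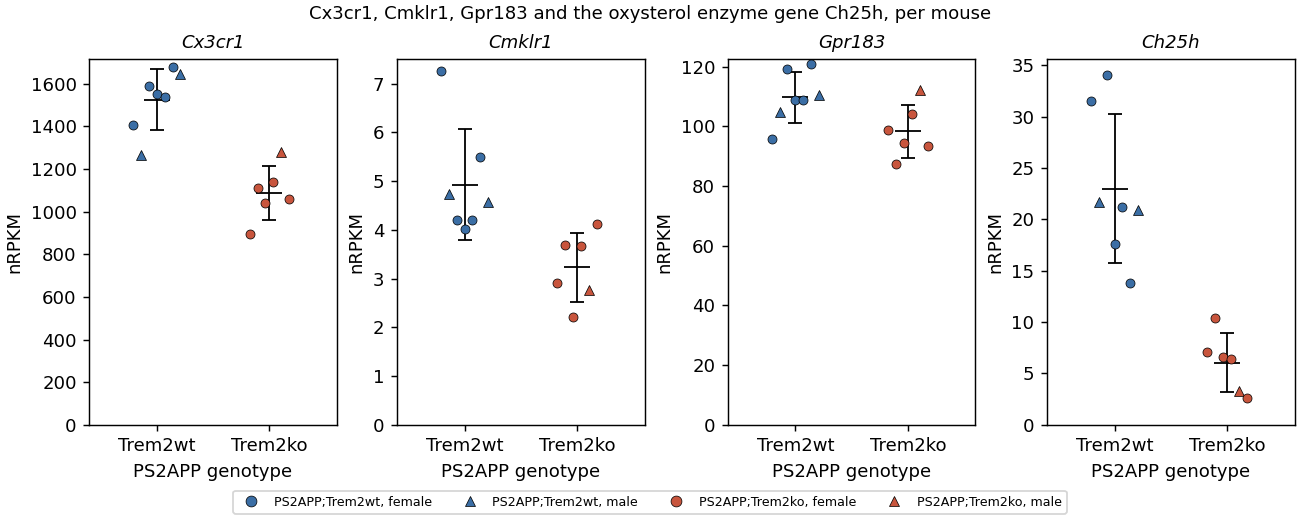
nRPKM per mouse of Cx3cr1, Cmklr1, Gpr183 and Ch25h on axes that start at 0, with the mean ± SD in black (7 PS2APP;Trem2wt and 6 PS2APP;Trem2ko mice). Only Ch25h has no overlap between genotypes among these 4, and the overlap in Cx3cr1 is between males.

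By level per length the order was Cx3cr1, Gpr183, Ccrl2, Cmklr1, Ccr1, Cxcr4, Fpr1 and Fpr2. The median over mice of the ratio of Cx3cr1 to Gpr183 was 12.7, and that of Gpr183 to Ccrl2 was 9.69. The ranges of Cmklr1 and Ccr1, of Cxcr4 and Fpr1, and of Fpr1 and Fpr2 overlapped, so these neighbours are not ordered in every mouse. Cx3cr1 made up 91.0 to 92.8% of the summed nRPKM of the 8 receptors in PS2APP;Trem2wt mice and 88.5 to 91.1% in PS2APP;Trem2ko mice. Its coefficient of variation was 9.44% and 11.7% in the 2 groups, against 44.0% and 57.4% for Ccr1.

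A list of 35 other chemoattractant receptors was set beside the 8. Of these, 23 were tested and 0 were called in edgeR in either direction, where 2.04% of all tested genes were, and 4 were at 0 in all mice. At an unadjusted p of 0.05 or less 0 of the 23 were lower and 1 higher, beside 7.56% and 7.29% of all tested genes. The most abundant included Gpr34 (a lysophosphatidylserine receptor), the complement receptors C3ar1 and C5ar1, and the sphingosine receptor S1pr1. Gpr34, which is also 1 of the 11 microglial markers, was of a similar level to Cx3cr1, its mean being lower than that of Cx3cr1 in PS2APP;Trem2wt and higher in PS2APP;Trem2ko mice, with 1244 ± 236 nRPKM (SD, n = 7) in PS2APP;Trem2wt and 1304 ± 133 nRPKM (SD, n = 6) in PS2APP;Trem2ko mice, a log2 fold change of 0.07 (edgeR, SE 0.12, adjusted p = 0.850). C3ar1 was at 115.8 and 118.3 nRPKM, C5ar1 at 80.3 and 85.8 nRPKM, and S1pr1 at 53.0 and 61.3 nRPKM. The gene at an unadjusted p of 0.05 or less was Ackr3, a chemokine scavenger, named after its value was seen. Its log2 fold change was 1.02 (edgeR, SE 0.30, adjusted p = 0.101), and its adjusted p was 0.019 with DESeq2.

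Ligands and enzymes of ligand metabolism formed a list of 16 genes, of which 12 were tested. Of these, 1 was called lower and 0 higher, beside 1.53% and 0.503% of all tested genes. The one called was Ch25h, cholesterol 25-hydroxylase, which makes the precursor of the Gpr183 ligand. It ran from 13.8 to 34.0 nRPKM (median 21.2) in PS2APP;Trem2wt and from 2.56 to 10.4 nRPKM (median 6.51) in PS2APP;Trem2ko mice. All 6 PS2APP;Trem2ko mice were below all 7 PS2APP;Trem2wt mice, where 1.18% of tested genes were lower and 0.439% higher without overlap. Ch25h had a log2 fold change of -1.92 (edgeR, SE 0.30, adjusted p = 0.00212), and 8.22% of its 50-base words are shared with Gm26902. The other listed enzymes of Gpr183 ligand metabolism were near or at 0. Cyp7b1 was not tested, and Hsd3b7 was listed at 0 in every mouse, with 83.1% of its words shared with another gene. Ccl6 was the most abundant ligand, at 290 ± 105 nRPKM (SD, n = 7) in PS2APP;Trem2wt and 169 ± 44 nRPKM (SD, n = 6) in PS2APP;Trem2ko mice, and was not called (log2 fold change -0.78, edgeR SE 0.22, adjusted p = 0.0851). Ccl3, Ccl4 and Ccl9 had log2 fold changes of -0.30, -0.25 and -0.21 and were not called. The fractalkine gene Cx3cl1, a neuronal product, was at 0.727 ± 0.319 nRPKM (SD, n = 7) and 0.807 ± 0.383 nRPKM (SD, n = 6) in these sorted cells.

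**Figure D3:**
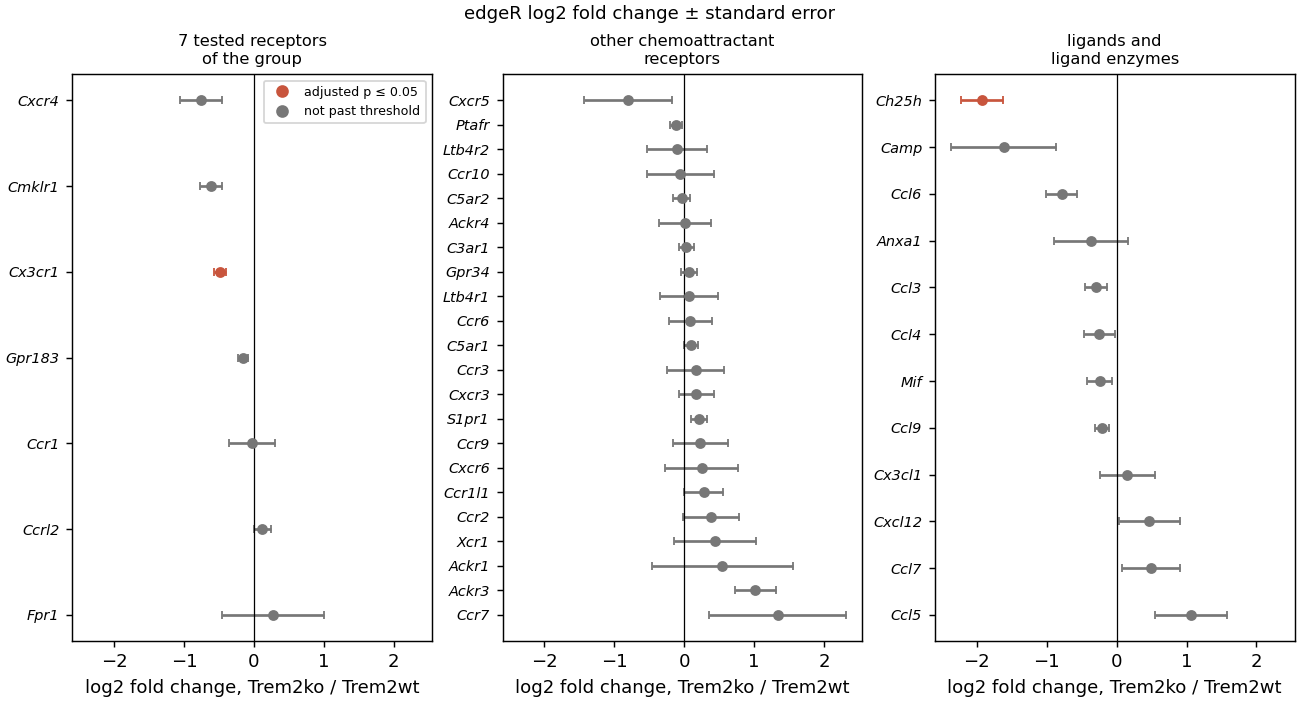
Log2 fold change (PS2APP;Trem2ko over PS2APP;Trem2wt) from edgeR ± standard error derived from its F statistic, for the 7 tested receptors, tested genes among the other chemoattractant receptors, and 12 ligand genes, ordered within each panel. Red points passed an adjusted p of 0.05, and they are Cx3cr1 and Ch25h.

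Genes that carry the signal inside the cell formed a list of 36, all of them tested, with 2 called lower and 0 higher, beside 1.53% and 0.503% of all tested genes. Gng12, a G protein γ subunit, fell from 26.7 ± 3.1 nRPKM (SD, n = 7) to 17.5 ± 2.9 nRPKM (SD, n = 6), with 23.2 to 32.5 against 14.2 to 22.1 nRPKM and no overlap (log2 fold change -0.61, edgeR SE 0.11, adjusted p = 0.00553). Rac1, a small GTPase of actin protrusion, fell from 44.9 ± 3.1 nRPKM (SD, n = 7) to 38.4 ± 1.0 nRPKM (SD, n = 6), also without overlap, as in 1.18% of tested genes (log2 fold change -0.23, edgeR SE 0.06, adjusted p = 0.0483). The Rac1 call was lost in each of 13 fits that left out a mouse, and 50.3% of its 50-base words are shared with other genes, most of them with Daglb. The most abundant genes of the list, Rgs10, Gnai2, Rgs2, Elmo1 and Arrb2, were not called, and Gnai2, the main Gi subunit of myeloid cells, had a log2 fold change of -0.11 (edgeR, SE 0.06, adjusted p = 0.392).

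On chromosome 9, Cx3cr1 shares its chromosome with Ccrl2, Ccr1 and other chemokine receptors such as Ccr9, Cxcr6 and Xcr1. Of the chemoattractant receptor genes listed on that chromosome, Cx3cr1 was the one called, where 2.04% of all tested genes were called in either direction. Some of the others, such as Ccr4 and Ccr8, were not tested. Xcr1 was near 0, with means of 0.063 nRPKM in PS2APP;Trem2wt and 0.088 nRPKM in PS2APP;Trem2ko mice. Over 9065 genes with a mean log2 CPM of at least 3, the genes most like Cx3cr1 across the 13 mice after the genotype means were removed were Serinc3 (Pearson r 0.895), Slc35a5 (0.883), 0610039K10Rik (0.865), Prr14 (0.858) and Prpf6 (0.854). Without that removal they were Chst7 (0.916), Itpripl2 (0.915), Postn (0.912), Irf2bpl (0.906) and Chst12 (0.903). These are descriptions over 13 points that share library and scaling. Of the 8 receptors, 4 others passed this level minimum. After removal r was 0.601 for Gpr183, 0.259 for Ccrl2, -0.04 for Cmklr1 and -0.33 for Ccr1, and without removal it was 0.753, -0.10, 0.605 and -0.12 in the same order.

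**Figure D4:**
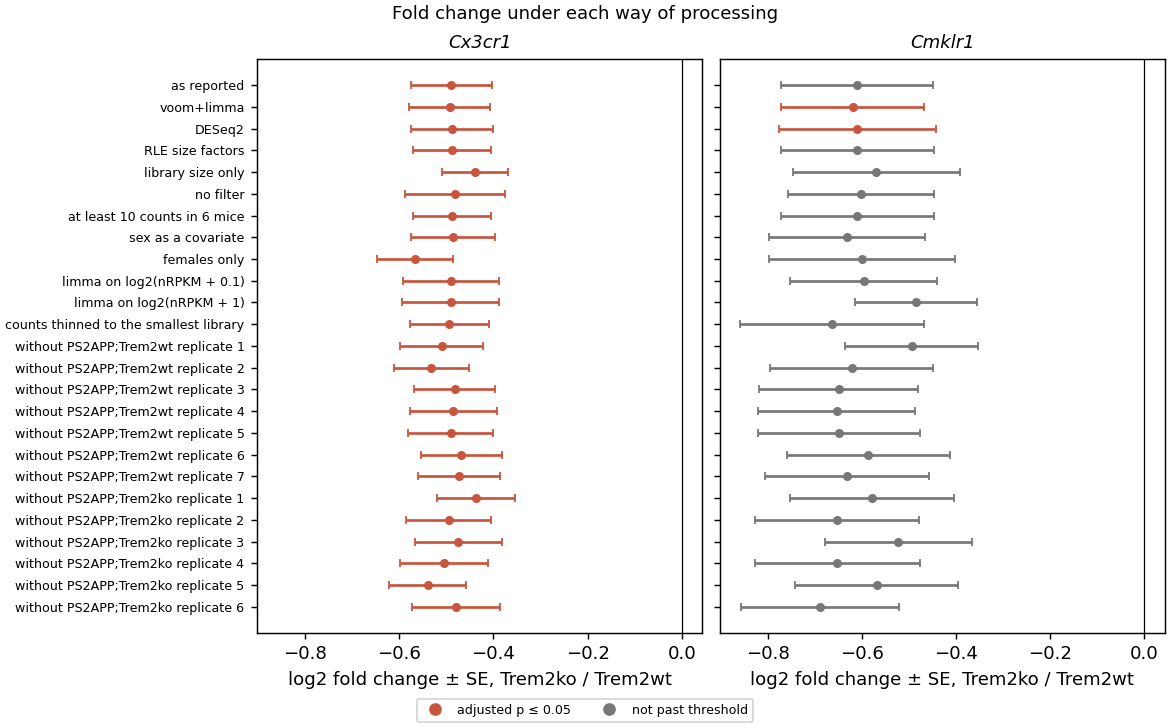
Log2 fold change ± standard error of Cx3cr1 and Cmklr1 for each way of processing the counts, including each mouse left out in turn (red, adjusted p of 0.05 or less; gray, above it). Cx3cr1 is red in all 25 fits, between -0.57 and -0.44, and Cmklr1 in 2.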

How the data were processed

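Values of 13 mice were used, 7 PS2APP;Trem2wt and 6 PS2APP;Trem2ko, grouped by the genotype in their labels. The authors aligned single-end reads to GRCm38 with GSNAP and deposited, per gene, a count of reads aligned at 1 place only, and nRPKM (RPKM corrected with a size factor). Genotypes were compared on the deposited counts with edgeR 4.0.16 in R 4.3.3 (TMM, filterByExpr, glmQLFit, glmQLFTest, no covariate). The SE given with edgeR values was derived, as the size of the log2 fold change over the square root of the test's F statistic. Counts were scaled and filtered because low counts and composition can change fold changes. Exact permutation tests used log2(nRPKM + 0.1). The members and gene lists were chosen with earlier results of these data known. Named were the 8 receptors, every called gene of the other lists, the 5 most abundant of each list and the 5 genes most like Cx3cr1. The text leaves out 1 of these genes. As alternatives, the fit was repeated with voom+limma (limma 3.58.1, the study's tool), DESeq2 1.42.0, RLE scaling, library size only, no filter, a minimum of 10 counts in 6 mice, limma on log2 nRPKM with a pseudocount of 0.1 or 1, females only, a sex covariate, thinned counts and leaving out each mouse. Tested on simulated data (16793 genes), edgeR recovered 98.5%, 82.1% and 42.4% of genes changed by 2, 1 and 0.5 on the log2 scale. It called 4 unchanged genes. The changed genes were drawn from the better expressed ones, so these rates do not cover low genes such as Fpr1. Coordinates are from GENCODE M21, promoters from RefSeq. Replicates are separate mice. Counts of 3 set the floor.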

Additional observations from a re-analysis of the deposited data

Results flagged for a closer look

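Of 22 groups of values examined, 2 held a mouse whose gap to the next value, as a share of the group's range, passed a critical value. Chance gives about 1 group in 20, so 2 of 22 is not far from chance. For Ccr1 the gap was 0.630 against a critical 0.625, and for Ccrl2 0.676 against 0.568. Ccr1 was 6.11 nRPKM in the PS2APP;Trem2ko female of replicate 3, which also had the highest monocyte marker sum of its genotype (21.4 nRPKM) and the highest dendritic cell marker sum (22.3 nRPKM). Ccrl2 was 14.5 nRPKM in the PS2APP;Trem2wt female of replicate 3, the library with 79883820 counts.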

How the results depend on the processing

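Cx3cr1, Ch25h and Gng12 were called lower in all 25 fits, with an adjusted p of Cx3cr1 between 3.8e-06 (DESeq2) and 0.0356 (no filter). The number of the 8 receptors called lower was 2 with voom+limma and with DESeq2, where Cmklr1 joined Cx3cr1. Other receptors called higher were 1 with DESeq2 and 0 to 1 when each mouse was left out, the 1 being Ackr3 without PS2APP;Trem2wt replicate 3 (adjusted p = 0.0384 from edgeR). Ligand genes called lower were 2 with DESeq2, with Ccl6 added. Signalling genes called lower were 1 with RLE scaling, library size only, no filter, 10 counts in 6 mice, females only and thinned counts, and 1 to 1 when each mouse was left out, Rac1 being the call lost, and 3 with DESeq2, which added Rgs3. With library size only, 1 signalling gene, Ric8a, was called higher. The causes were not tested. The log2 fold change of Ccr1 was 0.0083 with library size only, 0.024 with sex as a covariate, 0.15 in females and -0.37 to 0.16 when each mouse was left out. That of Fpr1 was -0.69 with voom+limma and -0.053 with sex as a covariate. On the single-receptor level, the Ccr1 difference was 0.048 in females, and that of Cxcr4 was -0.71 in females (two-sided exact permutation p = 0.0714). No paired analysis was possible because the labels give no replicate numbers (those used here follow sample order only) and, although the study handled most mice as pairs of both genotypes, do not tell which mice formed a pair. Low counts limit Fpr1 and Fpr2.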
